A study of Mus musculus with 20 samples.

Results

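The suppressor of cytokine signalling (SOCS) family was followed in murine CD8+ T cells given interleukin-21 or a designed mimic of it. The 8 members, Cish and Socs1 to Socs7, were taken by gene symbol from the deposited tables, which list 23992 symbols, and each was represented by its longest transcript, which was also its most-read transcript for all 8. All 8 had enough reads to be tested in both experiments.

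The RNA came from CD8+ T cells of the spleens of wild-type C57BL/6J mice aged 6 to 8 weeks. All cells, the unstimulated ones included, had been activated for 48 hours with anti-CD3 (2 µg/mL) and anti-CD28 (1 µg/mL) and rested overnight. Treated cells then received, for 24 hours, either the native mouse cytokine, called mIL-21, or 21h10, a computationally designed protein that binds the IL-21 receptor. The labels give no such time for the unstimulated cells and do not say whether they were cultured for those 24 hours. If they were not, cytokine and time in culture cannot be told apart in any comparison with them. Each protein was used at 100 pM and 1 nM in experiment 1 and at 10 nM and 100 nM in experiment 2. Both experiments had unstimulated cells of their own, and each of the 10 groups had duplicate libraries (n = 2). The study describes its RNA-seq replicates, for all its experiments together, as independent and from different tissue preparations or donors. The labels of these duplicates do not say how they were made, and p-values measure the spread between them. The experiment and the dose range changed together and cannot be told apart.

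SOCS proteins are the classical negative feedback of the JAK-STAT pathway. A cytokine brings the chains of its receptor together, the receptor-bound JAK kinases phosphorylate STAT transcription factors, and the STATs switch on a set of genes that includes several of this family. The proteins share an SH2 domain, which binds phosphorylated tyrosine, and a C-terminal SOCS box, which recruits a ubiquitin ligase of elongins, a cullin and a RING protein. IL-21 signals through IL-21R and the common gamma chain, JAK1 and JAK3, and mainly STAT3, with STAT5 to a lesser extent. SOCS1 and SOCS3 also inhibit JAK kinases directly through a short inhibitory region, whereas CIS and SOCS2 compete at phosphorylated receptor sites. SOCS4 and SOCS5 are best known from growth factor receptor signalling, and SOCS6 and SOCS7 from signalling of receptor tyrosine kinases and the insulin pathway.

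The libraries of experiment 1 held 36824740 to 94070730 reads on genes, and those of experiment 2 held 27072917 to 43300094. Each member had at least 233 reads in every library, the least being for Socs5. The spread of true levels between duplicates was 4.32% of the level in experiment 1 and 8.80% in experiment 2 (biological coefficient of variation in edgeR). The unstimulated duplicates of experiment 2 differed more than any other pair, with a chi-square of 35.5 per gene against 2.65 to 18.1 in the other groups, and results that rest on either of them are given without it where that matters. Markers of CD8+ T cells (6 of the 7 listed were in the tables) summed to between 1803 and 2996 CPM (reads scaled to a common library total) in every library. The 13 listed markers of other cells summed to between 6.04 and 38.5 CPM in experiment 1, highest with mIL-21 at 100 pM and lowest with 21h10 at 1 nM, and to between 8.77 and 26.1 CPM in experiment 2. Without Itgax, which activated CD8+ T cells also use, they summed to at most 6.71 CPM, with S100a8 at 0 in every library. Among those with enough reads to be tested, 2 to 4 of 6 were lower in treated than in unstimulated cells in the groups of experiment 1. In those of experiment 2, 4 to 7 of 8 were lower, and the B cell marker Ms4a1 was lower in each group of both. Of all genes tested, 5506 to 5881 of 13974 were lower in experiment 1 and 3264 to 3553 of 13772 in experiment 2. Itgax was higher in 3 of the 4 treated groups of each experiment and lower with 21h10 at 1 nM and at 100 nM. Foxp3, the regulator of regulatory T cells, was higher in all 4 treated groups of experiment 2, where it went from 0.164 and 0.192 CPM in unstimulated libraries to between 1.62 and 3.93 CPM in treated ones. Their part in the results was not tested.

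The windows around the RefSeq gene starts of Socs3 and Cish hold letters of the kind that STAT proteins bind, before that start for Socs3 and just after it for Cish. The motif searched was TTCNNNGAA, which reads the same on both strands, in the window from 250 bases before to 50 bases after each RefSeq gene start (GRCm38.p6). Of the 8 members, Cish, Socs1, Socs3 and Socs4 have an entry in that table. Cish has 2 matches and Socs3 has 1, and Socs1 and Socs4 have none. Of all 32851 windows, 8.30% hold at least 1 match and 0.457% hold at least 2. The stretches around the matches are printed with the matches in capitals, Cish from chr9:107296654-107296683 on the plus strand and Socs3 from chr11:117969502-117969530 on the minus strand. These are matches of letters and not measured binding sites.
Cish: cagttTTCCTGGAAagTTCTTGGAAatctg
Socs3: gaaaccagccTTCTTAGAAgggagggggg

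The Socs3 match begins 154 bases before the start used by RefSeq. It lies in no annotated exon but within the span that GENCODE gives for Socs3 (117966079 to 117970047). The Cish matches begin at positions 1 and 12 after the start used by RefSeq, within an exon that GENCODE annotates for Cish.

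Socs3 (NM_007707, chromosome 11 from 117966079 to 117970047, GRCm38), whose protein inhibits JAK kinases at receptors that signal through STAT3, was the member that changed most. Its level is given here, as for each gene compared with itself between groups, in CPM of the TMM-scaled library. In experiment 1 the unstimulated libraries had 6.57 and 6.67 CPM. With mIL-21 at 100 pM they had 47.8 and 44.6 CPM, and with 21h10 at 100 pM 172 and 169 CPM. At 1 nM the libraries with mIL-21 had 296 and 312 CPM and those with 21h10 had 686 and 606 CPM. No groups overlapped, and each step from unstimulated cells to mIL-21 at 100 pM, 21h10 at 100 pM, mIL-21 at 1 nM and 21h10 at 1 nM led to a higher level. Against unstimulated cells the level rose 6.99-fold with mIL-21 at 100 pM (log2 fold change 2.81, standard error 0.0734, edgeR adjusted p = 1.07e-15) and 97.6-fold with 21h10 at 1 nM (6.61, standard error 0.0759, edgeR adjusted p = 4.68e-20). All p-values called edgeR adjusted here are from its quasi-likelihood test, adjusted by Benjamini-Hochberg over all genes tested. The measure is of bulk RNA, in which a change in the share of responding cells and a change in RNA per cell cannot be told apart.

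In experiment 2 the unstimulated libraries had 11.9 and 11.8 CPM of Socs3. All 4 treated groups were high and close to each other. With mIL-21 the libraries had 322 and 344 CPM at 10 nM and 293 and 291 CPM at 100 nM. With 21h10 they had 315 and 313 CPM at 10 nM and 262 and 261 CPM at 100 nM, the lowest treated group. The increases over unstimulated cells lay between 22.1-fold (21h10 at 100 nM) and 28.2-fold (mIL-21 at 10 nM), each past the threshold with an edgeR adjusted p of at most 2.98e-15. With either unstimulated library left out the 4 log2 fold changes still lay between 4.45 and 4.82.

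**Figure D1:**
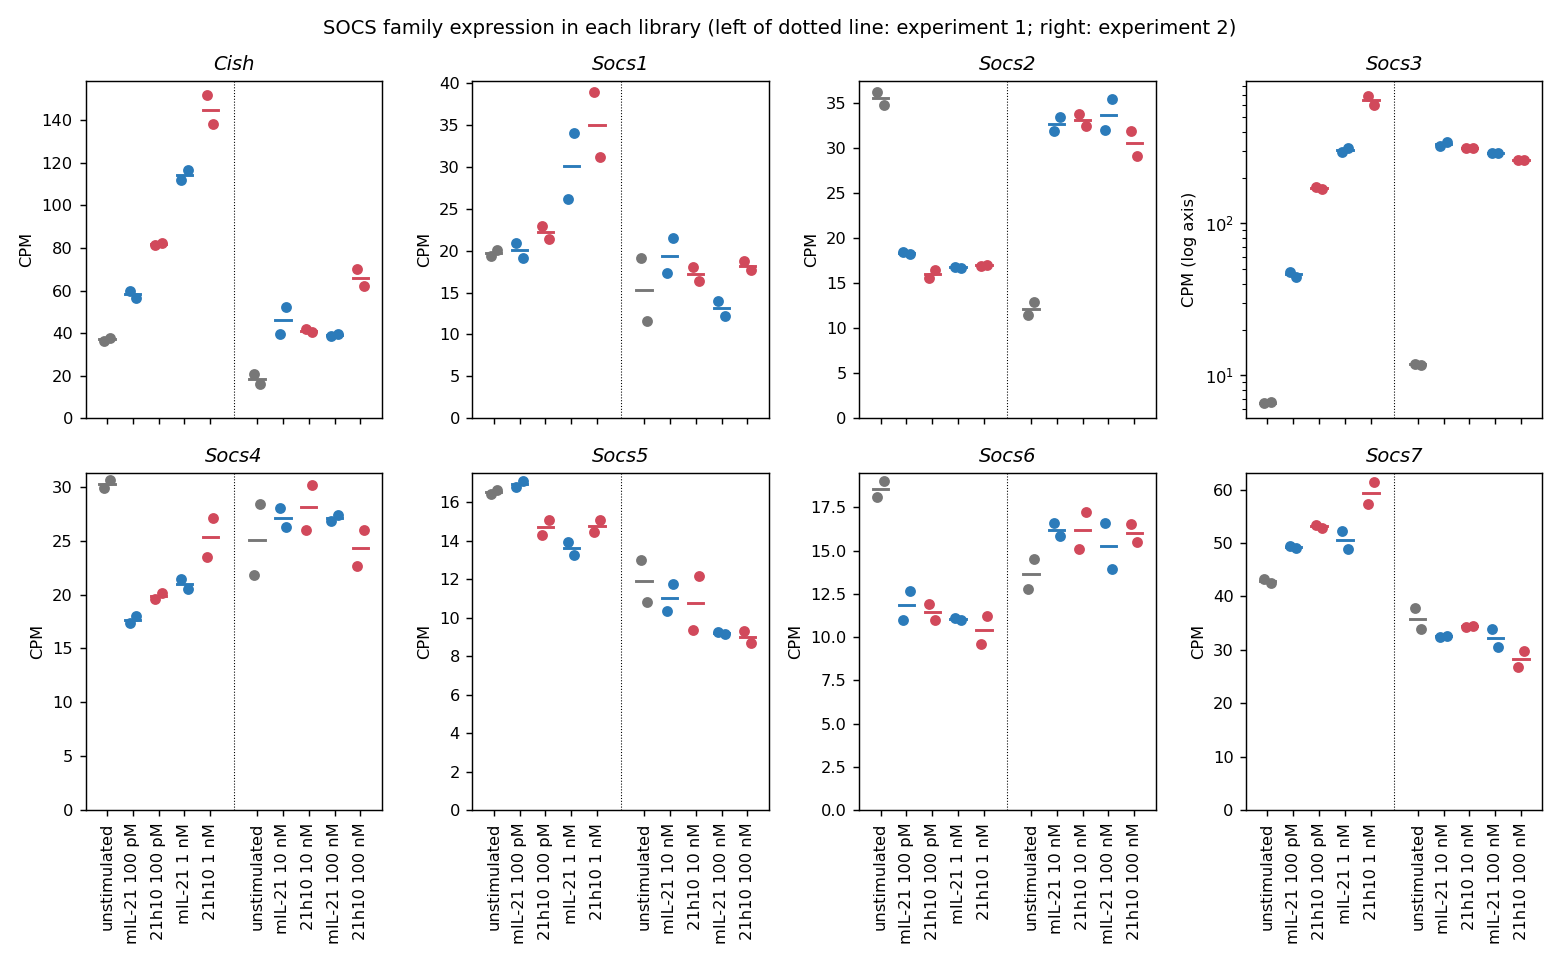
Level of each SOCS family gene in every library, in CPM of the TMM-scaled library (vertical axis, logarithmic for Socs3 only), by group (horizontal axis), with points for the duplicates, bars for their mean, grey for unstimulated cells, blue for mIL-21 and red for 21h10. Socs3 runs from 6.57 to 686 CPM in experiment 1 and Socs2 stands highest in the unstimulated cells of experiment 1 and lowest in those of experiment 2.

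Cish (NM_009895, chromosome 9 from 107296026 to 107302784), which encodes CIS, a STAT5 target that restrains cytokine and T cell receptor signalling in CD8+ T cells, followed the same order in experiment 1. The unstimulated libraries had 36.4 and 37.7 CPM. The libraries with mIL-21 at 100 pM had 59.7 and 56.6 CPM and those with 21h10 at 100 pM had 81.2 and 82.5 CPM. At 1 nM the libraries had 112 and 117 CPM with mIL-21 and 152 and 137.99 CPM with 21h10. The groups did not overlap, and the increase over unstimulated cells went from 1.57-fold (log2 fold change 0.65, standard error 0.0564, edgeR adjusted p = 8.33e-09) with mIL-21 at 100 pM to 3.91-fold (1.97, standard error 0.0557, edgeR adjusted p = 1.29e-15) with 21h10 at 1 nM. In experiment 2 the unstimulated libraries were at 20.7 and 16.2 CPM, and the treated ones at 39.6 and 52.5 CPM with mIL-21 at 10 nM and 41.8 and 40.4 CPM with 21h10 at 10 nM. At 100 nM they were at 38.7 and 39.7 CPM with mIL-21 and 70.0 and 62.0 CPM with 21h10. Of these groups 21h10 at 100 nM stood above all others, 3.57-fold over unstimulated cells, and the other 3 rose between 2.12-fold and 2.49-fold. Exonic sequence of Cish is shared with 2 genes on the other strand, whose reads cannot be told apart without strand. The antisense gene Gm17041 covers 7.46% of all exonic bases annotated for Cish and matches 17% of its transcript. For Gm17040, a transcribed processed pseudogene, these shares are 4.07% and 3.68%.

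Socs1 (NM_001271603, chromosome 16 from 10782240 to 10785536), the inhibitor of JAK kinases that is best known for restraining interferon-gamma and common gamma chain cytokines, passed the threshold at 1 nM and at no other dose in the fit of all groups. In experiment 1 the unstimulated libraries had 19.4 and 20.1 CPM. The libraries at 100 pM had 21.0 and 19.2 CPM with mIL-21 and 22.9 and 21.4 CPM with 21h10. At 1 nM they had 26.1 and 34.1 CPM with mIL-21 and 38.8 and 31.2 CPM with 21h10, above the unstimulated libraries and with a wider spread between duplicates. The increase at 1 nM was 1.53-fold with mIL-21 (log2 fold change 0.61, standard error 0.108, edgeR adjusted p = 5.43e-05) and 1.77-fold with 21h10 (0.82, standard error 0.107, edgeR adjusted p = 1.60e-06). At 100 pM the intervals of the log2 fold change, from -0.21 to 0.26 with mIL-21 and from -0.06 to 0.39 with 21h10, include 0. Both libraries with 21h10 at 100 pM were nevertheless above both unstimulated ones, and with the compared groups alone that difference passed (0.20, adjusted p = 0.00232). In experiment 2 the unstimulated duplicates of Socs1 were themselves apart, at 19.1 and 11.6 CPM, and the 8 treated libraries lay between 12.2 and 21.5 CPM, overlapping them in every group. None of the 4 treated groups passed the threshold there, with log2 fold changes from -0.23 to 0.34. The answer rests on which unstimulated library is used. Without the higher of them Socs1 passed in 3 groups, with log2 fold changes of 0.75 (mIL-21 at 10 nM), 0.57 (21h10 at 10 nM) and 0.65 (21h10 at 100 nM), and without the lower of them it passed with mIL-21 at 100 nM, at -0.54. It also passed with mIL-21 at 10 nM when low counts were not filtered (adjusted p = 0.0462).

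Socs2 (NM_007706, chromosome 10 from 95385362 to 95417180), a STAT5 target known from growth hormone signalling, moved in opposite directions in the experiments. In experiment 1 the unstimulated libraries had 36.2 and 34.9 CPM. All 8 treated libraries were lower, at 18.5 and 18.3 CPM with mIL-21 and 15.6 and 16.5 CPM with 21h10 at 100 pM, then 16.8 and 16.7 CPM (mIL-21) and 16.9 and 17.0 CPM (21h10) at 1 nM. The levels fell to about the same height in all 4 groups, by 0.95 to 1.15 on the log2 scale, with edgeR adjusted p-values of at most 2.12e-10. In experiment 2 the unstimulated libraries had only 11.5 and 12.9 CPM and all 8 treated libraries were higher. They had 31.9 and 33.5 CPM with mIL-21 and 33.8 and 32.5 CPM with 21h10 at 10 nM, and 32.0 and 35.4 CPM with mIL-21 and 31.9 and 29.1 CPM with 21h10 at 100 nM. The increase was 2.51-fold to 2.77-fold, with edgeR adjusted p-values of at most 8.59e-08, and it stayed at a log2 fold change of 1.24 to 1.55 without either unstimulated library. Set side by side, although the experiments were scaled separately, the unstimulated libraries of experiment 2 were below the treated ones of experiment 1. A pseudogene, Gm9847, matches 27.0% of the Socs2 transcript at up to 99.5% identity, and how reads on that stretch were assigned is not given in the sources used here.

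Socs4 (NM_080843, chromosome 14 from 47276931 to 47296102) and Socs6 (NM_018821, chromosome 18 from 88665224 to 88927481) were lower with cytokine in experiment 1. Socs4 had 29.9 and 30.6 CPM in unstimulated cells. Its treated libraries lay at 17.3 and 18.0 CPM with mIL-21 and 19.5 and 20.2 CPM with 21h10 at 100 pM, and at 21.4 and 20.5 CPM with mIL-21 and 23.5 and 27.1 CPM with 21h10 at 1 nM, all below both unstimulated libraries. The decrease of Socs4 was smallest in the group in which Socs3 and Cish were highest. It fell by 0.78 on the log2 scale with mIL-21 at 100 pM (edgeR adjusted p = 2.16e-08) and by 0.25 with 21h10 at 1 nM (edgeR adjusted p = 0.00333, and 0.0543 without the lower library of that group). Socs6 had 18.1 and 19.0 CPM in unstimulated cells and between 9.62 and 12.7 CPM in the 8 treated libraries, with no overlap. It fell by 0.65 to 0.82 on the log2 scale, with edgeR adjusted p-values of at most 2.24e-06. A pseudogene of Socs6, Gm9449, matches 33.6% of its transcript at up to 96.7% identity.

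In experiment 2 neither gene passed the threshold in any treated group. Socs4 had 21.8 and 28.4 CPM in unstimulated cells and between 22.7 and 30.2 CPM in the treated libraries, so that the groups overlapped. The intervals of its log2 fold changes reach from -0.32 to 0.44 over the 4 groups. Without the higher unstimulated library Socs4 passed with 21h10 at 10 nM (0.36, edgeR adjusted p = 0.0288). With limma and with library sizes from mapped reads it passed as lower with 21h10 at 100 nM (adjusted p from 0.0266 to 0.0275). Socs6 had 12.8 and 14.5 CPM in unstimulated cells and between 13.9 and 17.2 CPM in the treated libraries, with both treated libraries above both unstimulated ones in every group but mIL-21 at 100 nM. Its log2 fold changes were 0.16 to 0.25, with intervals that reach from -0.11 to 0.53.

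Socs5 (NM_019654, chromosome 17 from 87107679 to 87137839) had 16.4 and 16.6 CPM in the unstimulated cells of experiment 1. With mIL-21 it had 16.8 and 17.1 CPM at 100 pM and 13.9 and 13.3 CPM at 1 nM. With 21h10 it had 14.3 and 15.1 CPM at 100 pM and 14.46 and 15.04 CPM at 1 nM. The 3 groups other than mIL-21 at 100 pM lay below the unstimulated libraries and passed the threshold, by -0.28 on the log2 scale with mIL-21 at 1 nM (edgeR adjusted p = 0.00133) and by -0.17 and -0.16 with 21h10 at 100 pM and 1 nM (edgeR adjusted p = 0.0283 and 0.0408). DESeq2 did not make the calls for 21h10 (adjusted p = 0.101 and 0.209), limma did not make that at 100 pM (0.0552 and 0.058), and that at 1 nM was absent with the compared groups alone (0.211) or with no filter on low counts (0.0577). They were also lost without 3 of the 10 libraries at 100 pM and without 9 of them at 1 nM. In experiment 2 the unstimulated libraries had 13.0 and 10.8 CPM and the treated ones between 8.66 and 12.2 CPM. There only 21h10 at 100 nM passed (log2 fold change -0.41, standard error 0.159, edgeR adjusted p = 0.0439), which it did not with DESeq2 (adjusted p = 0.0621), with the compared groups alone (0.0942) or without any of 5 libraries, both of mIL-21 at 100 nM, both of 21h10 at 100 nM and the higher unstimulated one (adjusted p from 0.0528 to 0.240). With mIL-21 at 100 nM both libraries were below the unstimulated ones as well, at a log2 fold change of -0.38 that did not pass (edgeR adjusted p = 0.0624). It did pass without the lower unstimulated library (0.0259), with limma (0.0221 and 0.0244) and with library sizes from mapped reads (0.00779), and with these sizes so did 21h10 at 10 nM (0.0446).

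Socs7 (NM_138657, chromosome 11 from 97362551 to 97398542) had 43.3 and 42.4 CPM in the unstimulated cells of experiment 1 and was higher in all 8 treated libraries. They had 49.5 and 49.1 CPM with mIL-21 and 53.4 and 52.8 CPM with 21h10 at 100 pM, and 52.3 and 48.8 CPM with mIL-21 and 57.3 and 61.4 CPM with 21h10 at 1 nM. The increases were small next to those of Socs3 and Cish, between 1.15-fold and 1.39-fold, and each passed the threshold with an edgeR adjusted p of at most 0.00279. In experiment 2 the treated libraries lay between 26.8 and 34.5 CPM against 37.7 and 33.9 CPM in unstimulated cells. Only 21h10 at 100 nM passed, with 26.8 and 29.8 CPM (log2 fold change -0.34, standard error 0.102, edgeR adjusted p = 0.0114), which it did not without the higher unstimulated library (adjusted p = 0.0662) or the lower library of that group (0.103) and with the compared groups alone (0.0522). With library sizes from mapped reads Socs7 passed as lower in the other 3 groups too (adjusted p from 0.0116 to 0.0281), and limma called it lower for 21h10 at 10 nM (0.0401 and 0.0416) and for mIL-21 at 100 nM (0.0263 and 0.0268).

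The number of members past the threshold against unstimulated cells was 6 of 8 with mIL-21 at 100 pM, beside 77.7% of the 13974 genes tested. It was 7 with 21h10 at 100 pM (81.6% of genes), and all 8 at 1 nM of either protein (80.1% for mIL-21 and 80.3% for 21h10), shares near those of all genes. In experiment 2 it was 3 of 8 for mIL-21 at both 10 nM and 100 nM (46.2% of the 13772 genes tested in each), 3 with 21h10 at 10 nM (50.1%) and 5 with 21h10 at 100 nM (50.8%). These counts do not set the family apart from other genes. The median log2 fold change over the 8 members lay between -0.02 and 0.29 in the 8 comparisons, beside medians of all genes between -0.04 and 0.

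**Figure D2:**
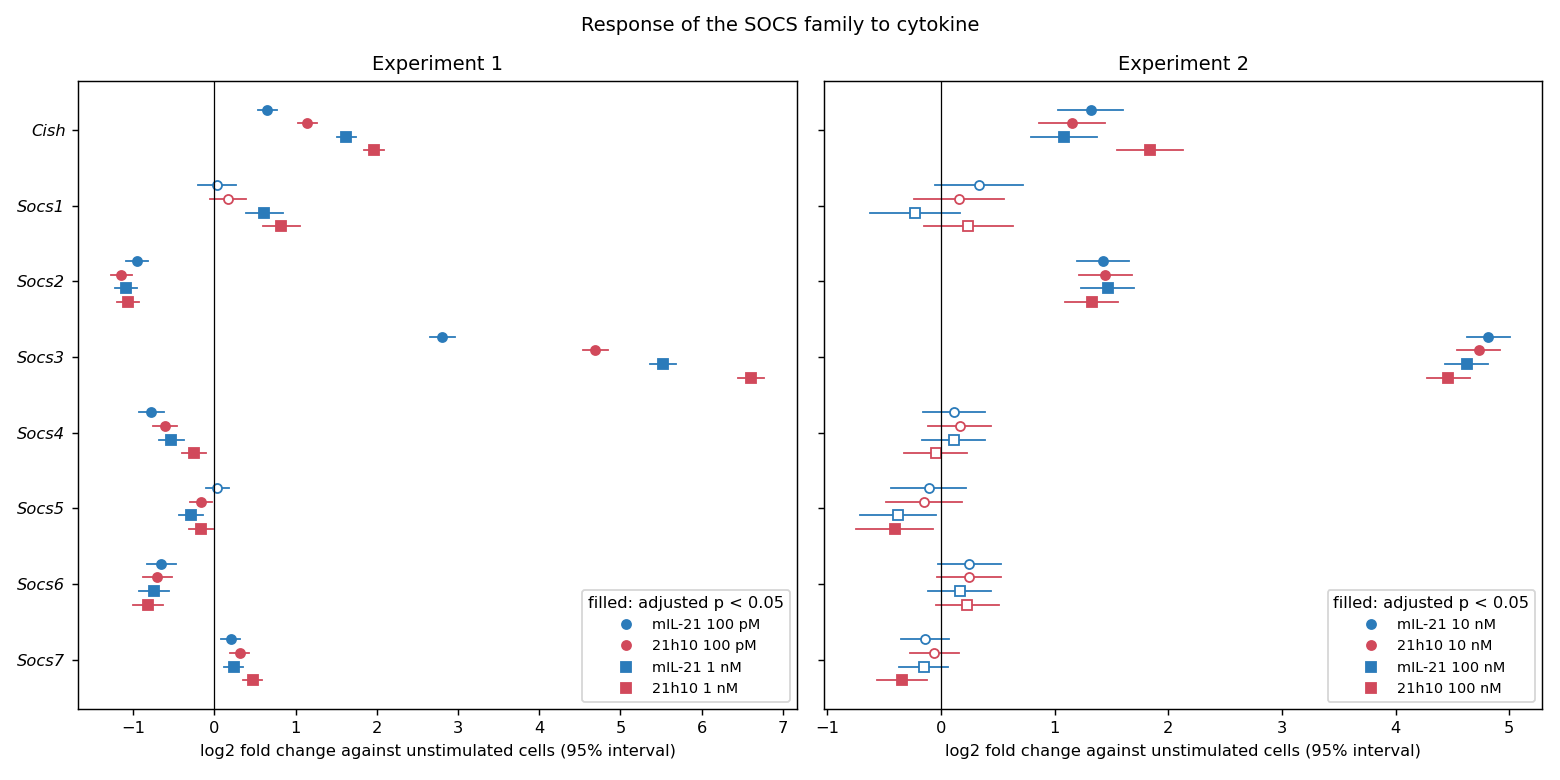
Log2 fold change of each SOCS family gene against the unstimulated cells of its experiment (horizontal axis), with 95% intervals from edgeR, circles for the lower and squares for the higher dose, blue for mIL-21 and red for 21h10, and filled symbols for an adjusted p under 0.05. Socs3 reaches 6.61 in experiment 1 and 4.82 in experiment 2, and Socs2 lies near -1 in experiment 1 and between 1.33 and 1.47 in experiment 2.

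Levels of different genes were compared per length, in the RPKM values that the authors deposited. In the unstimulated cells of experiment 1 Cish was highest, with a mean of 14.5 RPKM, followed by Socs2 (13.5), Socs1 (12.5) and Socs4 (11.9), and Socs3 was the lowest of the 8 at 2.06 RPKM. The duplicates of Socs1 and Socs4 overlapped and those of the other neighbours in that order did not. With mIL-21 at 100 pM Socs3 stood in place 2, at 15.2 RPKM, below Cish at 24.0 RPKM. In the 3 other treated groups of the experiment it stood first, at 52.1 RPKM with 21h10 at 100 pM, 92.0 RPKM with mIL-21 at 1 nM and 189.5 RPKM with 21h10 at 1 nM, each time followed by Cish and then Socs1. Socs3 alone made up 3.04% of the summed RPKM of the 8 genes in both unstimulated libraries and 65.6% and 64.4% in those with 21h10 at 1 nM.

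In the unstimulated cells of experiment 2 Socs4 (9.63 RPKM) and Socs1 (9.57 RPKM) led, with overlapping duplicates, and Socs3 stood in place 6 at 3.60 RPKM. In all 4 treated groups Socs3 was first, at 64.6 to 89.7 RPKM, then Cish at 12.9 to 20.6 RPKM and Socs2 at 9.26 to 10.8 RPKM, whose duplicates overlapped those of Socs1 in 2 of the 4 groups. Socs5 was the lowest of the family throughout that experiment, between 1.29 and 2.51 RPKM in its libraries, and in experiment 1 it stood in place 7 or 8.

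**Figure D3:**
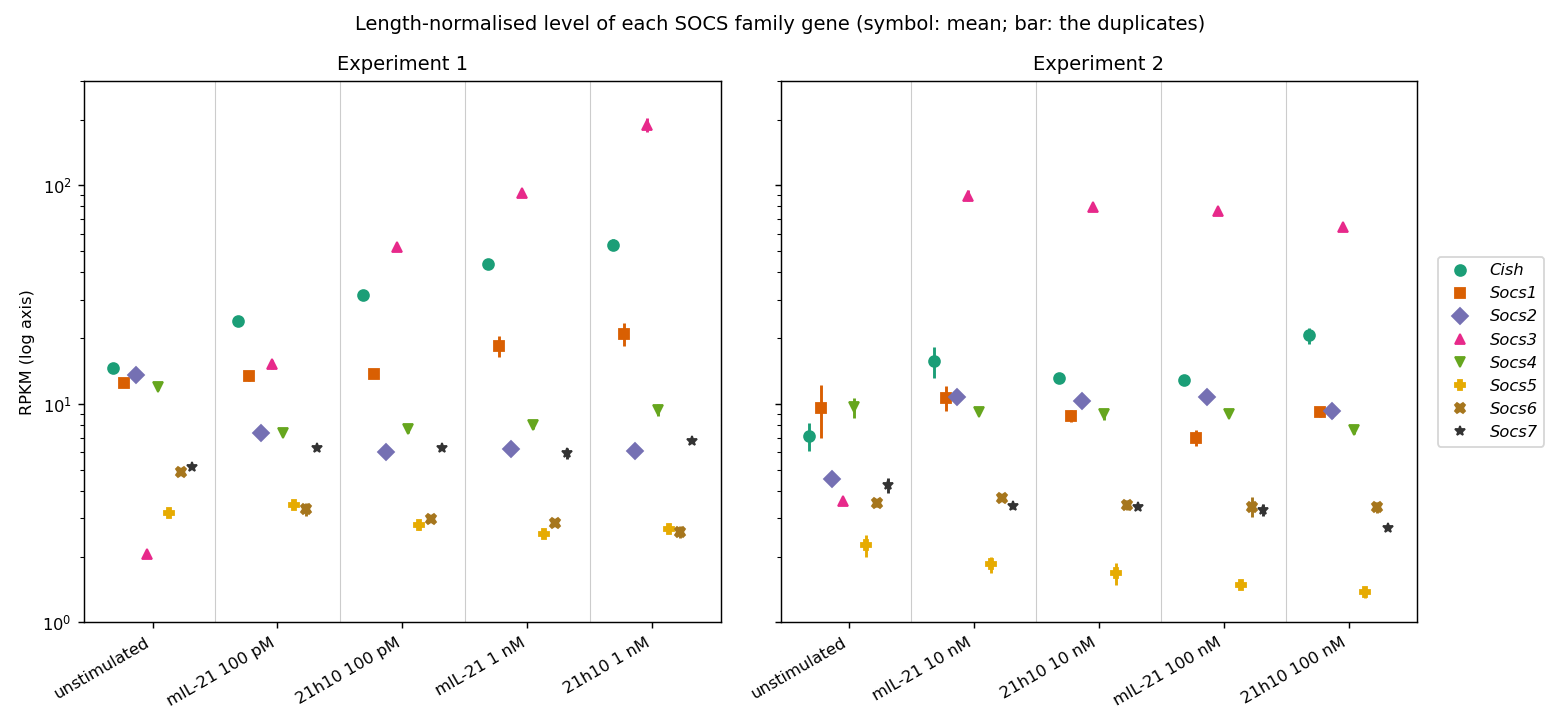
Deposited RPKM of each SOCS family gene (vertical axis, logarithmic) by group (horizontal axis), with a symbol for the mean and a bar spanning the duplicates. Socs3 goes from the lowest of the 8, at 2.06 RPKM in the unstimulated cells of experiment 1, to the highest in 7 of the 8 treated groups.

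The comparison of 21h10 with mIL-21 at equal dose asks whether the designed protein drives the feedback genes further than the native one. At 100 pM and 1 nM, 4 of the 8 members passed the threshold at each dose, beside 38.6% and 37.7% of all genes, and at both doses Socs3 and Cish were among the higher ones. At 100 pM Socs2 and Socs5 were lower with 21h10. The members that the cytokines moved most were not all among them. Socs2, low in all treated cells of experiment 1, differed by -0.19 on the log2 scale at 100 pM (edgeR adjusted p = 0.0274, and 0.0981 to 0.169 without any of 3 of the 4 libraries compared and 0.0704 with no filter) and had an interval of -0.13 to 0.17 at 1 nM. Socs5 differed by -0.20 at 100 pM (edgeR adjusted p = 0.0283), a call lost with DESeq2 (0.0607), with no filter (0.067) and without any of the 4 libraries compared (0.0561 to 0.165). Socs6, which also fell with cytokine, did not pass at either dose, with intervals of -0.24 to 0.14 and -0.28 to 0.13. Socs4 was higher with 21h10 at 1 nM (log2 fold change 0.28, standard error 0.0739, edgeR adjusted p = 0.00661), and so was Socs7 (0.23, standard error 0.0552, edgeR adjusted p = 0.00285). Without the higher library of 21h10 at 1 nM, Socs4 did not pass (adjusted p = 0.126), and with limma Socs7 did not (0.0629 and 0.063). With the compared groups alone both passed at 100 pM as well (0.0227 for Socs4 and 0.0284 for Socs7). Socs1 did not pass at 100 pM (interval -0.10 to 0.37) or at 1 nM (-0.02 to 0.44), where the duplicates of both groups overlapped. It did pass at 1 nM without the higher mIL-21 library (0.42, adjusted p = 0.00548) or the lower 21h10 library (0.37, adjusted p = 0.0176), and with no filter (0.025).

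At 10 nM none of the 8 members passed, beside 0.00726% of the 13772 genes tested, and none passed with DESeq2 or limma. An unadjusted p under 0.05 in edgeR was reached by 0 of the 8, beside 1207 of the 13772 genes. The interval of the log2 fold change of Socs3 went from -0.24 to 0.07, below the intervals at 100 pM (1.75 to 2.01) and 1 nM (0.97 to 1.21). That of Cish went from -0.45 to 0.11. At 100 nM only Cish passed, beside 8.53% of all genes, with both libraries given 21h10 above both given mIL-21 (log2 fold change 0.75, standard error 0.132, edgeR adjusted p = 0.00192). Socs3 was lower with 21h10 at 100 nM in both libraries without passing (-0.16, interval -0.32 to -0.00, edgeR adjusted p = 0.198). Socs1 at 100 nM had 14.0 and 12.2 CPM in cells given mIL-21 and 18.7 and 17.7 CPM in those given 21h10. This difference of 0.47 on the log2 scale did not pass (edgeR adjusted p = 0.139) but did with the compared groups alone (0.0204), with no filter (0.0289) and without either unstimulated library (0.0252 and 0.0242).

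**Figure D4:**
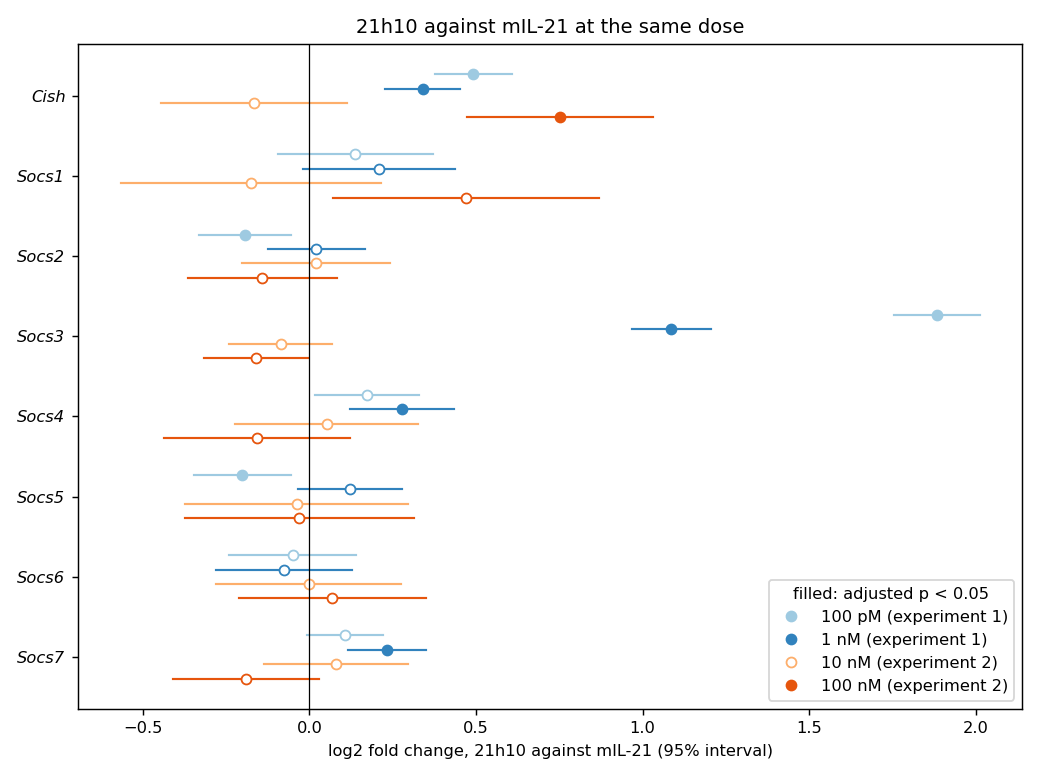
Log2 fold change of each SOCS family gene between 21h10 and mIL-21 at the same dose (horizontal axis), with 95% intervals from edgeR, light to dark blue for 100 pM and 1 nM in experiment 1, light to dark orange for 10 nM and 100 nM in experiment 2, and filled symbols for an adjusted p under 0.05. Socs3 lies far to the right at 100 pM and 1 nM and at or below 0 at 10 nM and 100 nM, and Cish lies to the right at every dose but 10 nM.

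The difference between 21h10 and mIL-21 itself changed with dose for 3 members. Between 100 pM and 1 nM the log2 difference fell for Socs3 by 0.80 (standard error 0.0818, edgeR adjusted p = 3.72e-06) and rose for Socs5 by 0.32 (standard error 0.101, edgeR adjusted p = 0.0331), 2 of 8 members beside 18.4% of all genes. The call of Socs5 was lost with the compared groups alone, without a filter on low counts, with limma and without any of 8 of the 10 libraries. Between 10 nM and 100 nM it rose for Cish by 0.92 (standard error 0.186, edgeR adjusted p = 0.0241), 1 of 8 members beside 0.922% of all genes. Leaving out any of 6 of the 10 libraries raised that adjusted p to between 0.0854 and 0.172, with log2 values of 0.70 to 0.94, limma gave 0.225 and 0.257, and library sizes from mapped reads gave 0.0536.

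From 100 pM to 1 nM, 5 of the 8 members changed with mIL-21 (34.5% of all genes) and 5 with 21h10 (39.2%). Socs3 rose 6.57-fold with mIL-21 (log2 fold change 2.72, standard error 0.0620, edgeR adjusted p = 4.77e-15) and 3.78-fold with 21h10 (1.92, standard error 0.0576, edgeR adjusted p = 8.35e-14). Cish rose 1.96-fold with mIL-21 and 1.77-fold with 21h10, and Socs1 rose by 0.59 and 0.66 on the log2 scale. Socs4 rose with both as well, by 0.25 (mIL-21) and 0.35 (21h10) on the log2 scale, although it was lower with cytokine than in unstimulated cells, and its call for mIL-21 was lost with limma and with library sizes from mapped reads (adjusted p from 0.183 to 0.237). Socs5 passed with mIL-21, where it fell by 0.32, and not with 21h10. Socs7 passed with 21h10, where it rose by 0.16, a call lost with the compared groups alone (adjusted p = 0.0699), limma (0.293), library sizes from mapped reads (0.258) and no filter (0.054). Socs2 and Socs6 passed with neither protein, although Socs2 was lower at 1 nM of mIL-21 with limma (0.0128 and 0.0129) and library sizes from mapped reads (0.0195).

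From 10 nM to 100 nM no member changed with mIL-21 in edgeR, beside 0% of the 13772 genes tested, and none passed with DESeq2 or limma. An unadjusted p under 0.05 in edgeR was reached by 2 of the 8 members, beside 361 of the 13772 genes. With 21h10, 2 of the 8 members changed, beside 5.33% of all genes. Cish rose 1.61-fold (log2 fold change 0.68, standard error 0.132, edgeR adjusted p = 0.00514), which did not pass with limma (0.0669 and 0.0712), without the lower library of 21h10 at 10 nM (0.0777) or without the higher one at 100 nM (0.0942). Socs3 fell by 0.26 (standard error 0.0732, edgeR adjusted p = 0.0461), which did not pass when any of the 8 treated libraries was left out (adjusted p between 0.0518 and 0.268), nor with limma (0.0778 and 0.0811) or library sizes from mapped reads (0.0577). The highest dose of 21h10 had the highest Cish and the lowest Socs3 of the treated groups in experiment 2.

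A 10-fold lower dose of 21h10 was set against mIL-21, 100 pM against 1 nM. At these doses 2 of the 8 members differed, beside 0.737% of all genes. Both were lower with 21h10, Socs3 by 0.83 and Cish by 0.48 on the log2 scale, and in both genes the libraries did not overlap. Socs1 was lower without overlap as well, at a log2 fold change of -0.45, and did not pass (edgeR adjusted p = 0.0782). It did pass with DESeq2 (0.011), library sizes from mapped reads (0.0165), no filter (7.23e-06) and without any of 3 of the libraries (0.00366 to 0.0152), and not with limma (0.256 and 0.304). Against unstimulated cells the 21h10 group at 100 pM nevertheless stood 25.8-fold higher for Socs3 and 2.21-fold higher for Cish.

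To compare experiments, the 4 treated groups of each were averaged and set against its unstimulated cells. This response to cytokine differed between the experiments for 5 of the 8 members, beside 64.7% of the 14530 genes tested. For Socs2 the response was higher in experiment 2 by 2.42 on the log2 scale (standard error 0.0972, edgeR adjusted p = 1.13e-14). It was also higher in experiment 2 for Socs6, by 0.89, and for Socs4, by 0.57 (edgeR adjusted p = 2.27e-06 and 0.000286). It was lower in experiment 2 for Socs3 by 0.31 (interval -0.49 to -0.13, edgeR adjusted p = 0.00394), although the doses were higher, and for Socs7 by 0.54 (edgeR adjusted p = 9.82e-06). For Cish the mean responses were close, with an interval of -0.32 to 0.20. Socs1 and Socs5 did not pass, but both did as lower in experiment 2 with library sizes from mapped reads (adjusted p = 0.0246 and 0.0374), and Socs1 also did with no filter (0.0172) and without the lower unstimulated library of experiment 2 (0.000908).

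The rest of the pathway was read from lists of its parts, chosen with earlier results of these data known. Of the 12 cytokine receptor chains listed, 9 were higher and 1 lower with mIL-21 at 1 nM than in unstimulated cells, a comparison in which 39.9% of all genes were higher and 40.3% lower. Ifngr1 and Il4ra, chains of the interferon-gamma and interleukin-4 receptors, rose by 1.61 and 1.18 on the log2 scale, and Il2rb fell by 0.17. All 4 JAK kinases rose in that comparison, Jak3 by 1.54 and Jak1 by 0.56. Of the 7 STAT factors 4 rose, Stat3 by 1.52 and Stat5b by 1.03 among them. The median log2 fold change was 0.52 for the receptor chains, 0.54 for the kinases and 0.63 for the STAT factors, beside 0 over all genes tested. In the 4 treated groups of experiment 2 the medians lay between 0.57 and 0.80 for the receptor chains, between 0.06 and 0.17 for the kinases and between -0.0037 and 0.19 for the STAT factors, with Jak1 and Jak3 higher and Tyk2 lower in each. By the test between experiments, the response in experiment 2 was higher for 4531 and lower for 4871 of the 14530 genes. It was lower for all 4 kinases and for 5 of the 7 STAT factors, Stat3 and Stat5b among them, and higher for Stat5a.

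Inhibitors of the pathway outside the SOCS family were mixed. Of 13 listed, 8 rose and 3 fell with mIL-21 at 1 nM. In the treated groups of experiment 2, 2 to 4 rose and 4 or 5 fell. There 3098 to 3469 of the 13772 genes rose and 3264 to 3553 fell. With mIL-21 at 1 nM Ptpn2, a phosphatase that acts on JAK1, JAK3 and STATs, rose by 1.29. Usp18, which dampens type I interferon signalling, fell by 1.26. The 8 measured partners of the SOCS box ligase all fell with mIL-21 at 1 nM, with a median of -0.46, Cul2 by 0.89 and Nedd8 by 0.88. With 21h10 at 1 nM 5 of these 8 fell and 1, Tceb1, rose, with a median of -0.25. In each treated group of experiment 2 at most 1 of them fell and 1 or 2 rose. With mIL-21 at 1 nM other SOCS box proteins changed in both directions, 5 higher and 4 lower of 13 tested. The largest rise was that of Spsb1 at 2.00. Of 12 other STAT target genes 9 rose, Bcl3 by 3.35 and the kinase gene Pim1 by 2.67, and 3 fell, Myc by 0.60 among them. In the treated groups of experiment 2, 8 of these 12 rose and 2 or 3 fell.

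Between the cytokines at 100 pM, where 19.6% of all genes were higher with 21h10 and 19% lower, Stat3 and Stat5a were higher with 21h10 by 0.54 and 0.49 on the log2 scale. Ptpn2 was higher by 0.68 and Usp18 lower by 0.74. All 8 SOCS box ligase partners were higher with 21h10 than with mIL-21 at that dose, with a median of 0.22, beside -0.01 over all genes tested. Pim1 was higher by 1.09 and Irf9 lower by 0.59.

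The genes whose levels ran most closely with each member were named by Pearson correlation of log2 CPM over the 20 libraries, after the mean of each experiment was subtracted, among 13248 genes. The values describe libraries that share their controls and doses and were not tested. The names depend on the measure, since of the 3 genes closest by Pearson 0 (Socs1 and Socs2), 1 (Cish, Socs3, Socs6 and Socs7) or 2 (Socs4 and Socs5) were also among the 3 closest by Spearman. For Socs3 they were Mxd1 (r = 0.998), Pim1 (0.995) and Sema4d (0.995), and for Cish Adam8 (0.978), Csrnp1 (0.974) and Mcf2l (0.964). Between Socs3 and Cish themselves r was 0.935. Socs2, whose pattern differed, was closest to Eif2ak1 (0.981), Dnaja4 (0.965) and Gpr171 (0.960), and within the family it was closest to Socs6 (0.729). Socs4 was closest to Zfx (0.953), Zbtb41 and Gm14436 (both 0.937), and Socs6 to Rab21 (0.949), Tpm1 (0.947) and Zfp84 (0.943). The likeness was lower for Socs7, with Cdyl2 (0.904), Klrk1 (0.871) and Gm19757 (0.870), for Socs5, with Dennd6b (0.865), Amot (0.844) and Rnf216 (0.835), and for Socs1, with Trp53i11 (0.835), Fam86 (0.824) and Jund (0.821).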

How the data were processed

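Expression was measured by RNA-sequencing in 20 libraries. According to the sources used here, the authors sequenced KAPA mRNA libraries on an Illumina NovaSeq, aligned reads to mm10 (GRCm38) and used edgeR. The submitters' processing notes name TopHat2 2.0.11, Bowtie2 2.2.6, SAMtools 0.1.8 and bedtools 2.25.0. The counting tool, strand setting and annotation version are not given in the sources used here. The authors deposited, per library, the raw read count and the RPKM of each RefSeq transcript. Groups follow the sample labels, in which the native cytokine is called WT.

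Counts of the longest transcript per symbol were kept by filterByExpr (a least count of 10, a least total of 15), scaled by TMM and tested with edgeR 4.0.16 (glmQLFit and glmQLFTest, R 4.3.3), fitting each experiment with its 10 libraries together and comparing the experiments in a joint fit of 20. Genes passed at a p under 0.05 after Benjamini-Hochberg adjustment. Standard errors are the log2 fold change over the square root of F, and intervals cover 95%. An exact permutation of 2 against 2 libraries cannot give a two-sided p under 0.33, so that significance rests on the spread shared across genes. Alternatives used DESeq2 1.42.0, limma 3.58.1 on log2(RPKM + 1) or log2(RPKM + 0.1), keeping genes that reached 1 RPKM in 2 or more libraries, no filter, mapped-read library sizes, the compared groups alone, the most-read transcript, a replicate block and each library left out in turn. Near-identical copies were found with BLAST 2.17.0 against GENCODE transcripts.

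The members, lists and tests were chosen with earlier results of these data known. The genes named are the 8 members, the 3 genes most like each, and from each list of the pathway genes among the 2 with the smallest adjusted p in each direction with mIL-21 at 1 nM against unstimulated cells or with 21h10 against mIL-21 at 100 pM. Other genes are named for overlap, sequence identity or as cell markers. Values of some listed pathway genes are not reported here.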

Additional observations from a re-analysis of the deposited data

Results flagged for a closer look

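The difference between 21h10 and mIL-21 changed with dose, by a test of that change itself, for Socs3 (log2 -0.80 at 1 nM relative to 100 pM), Socs5 (0.32 at 1 nM relative to 100 pM) and Cish (0.92 at 100 nM relative to 10 nM). The response to cytokine against unstimulated cells differed between the experiments for Socs2 (log2 2.42 in experiment 2 relative to experiment 1), Socs6 (0.89), Socs4 (0.57), Socs7 (-0.54) and Socs3 (-0.31). The change of experiment cannot be told apart from the change of dose range.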

How the results depend on the processing

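None of the 2952 repeated tests of a single member turned the direction of a called value. The side of the threshold was kept in 2813 of them, lost in 92 and gained in 47. In every setting run, Socs3, Cish and Socs2 passed in all 8 comparisons with unstimulated cells. The replicate block changed no call (160 of 160) and left every count as it was, for example 4 members between the cytokines at 100 pM. The duplicate numbers were not taken to pair the libraries, since the deviations of like-numbered libraries correlated between -0.06 and 0.03 in experiment 1 and between -0.17 and 0.23 in experiment 2. The most-read transcript also changed none of 160. Library sizes from mapped reads moved the median of all genes in experiment 2 by -0.18 to -0.30 against unstimulated cells, where it called 2003 genes higher and 4733 lower with mIL-21 at 10 nM (3098 and 3265 with TMM). With them the members past the threshold against unstimulated cells became 5 for mIL-21 at 100 nM, beside 1822 higher and 5203 lower of 13803 genes. They became 5 for 21h10 at 10 nM, beside 1967 genes higher and 5793 lower. For 21h10 at 100 nM against 10 nM they were 1, beside 186 genes higher and 458 lower. For the change of the cytokine difference from 10 nM to 100 nM they were 0, beside 50 genes higher and 48 lower. With limma at either pseudocount the members were 5 for mIL-21 at 100 nM against unstimulated cells. Counts of genes are given for log2(RPKM + 1), here 1523 higher and 4507 lower of 10813. The members were 0 for 21h10 at 100 nM against 10 nM (128 genes higher and 281 lower). For the change of the cytokine difference from 10 nM to 100 nM they were 0 (36 genes higher and 27 lower). For that from 100 pM to 1 nM they were 1 (1175 genes higher and 685 lower of 11159). Without a filter the members were 2 between the cytokines at 100 pM (2670 genes higher and 2568 lower of 19716). They were 2 at 100 nM (752 genes higher and 969 lower of 19364) and 1 for the change from 100 pM to 1 nM (1208 and 1367 of 19716). With the compared groups alone the members were 3 for 21h10 at 100 nM against unstimulated cells (3054 genes higher and 2930 lower of 13185). They were 2 between the cytokines at 100 nM (1013 higher and 1013 lower of 12981). For the change from 100 pM to 1 nM they were 1 (926 higher and 1235 lower of 13661). The cause of these shifts was not tested, and counts of all genes with a library left out are not reported here. Leaving out each library gave 3 to 5 members for mIL-21 at 100 nM (5 without the lower-Socs1 unstimulated library of experiment 2) and 3 to 5 for 21h10 at 100 nM against unstimulated cells (3 without its first duplicate). Between the cytokines it gave 2 to 5 at 100 pM (2 without either mIL-21 library or the first 21h10 library) and 1 to 2 at 100 nM (2 without either unstimulated library). For 21h10 at 100 nM against 10 nM it gave 0 to 2, with the lower counts without any treated library, for the change of the cytokine difference from 100 pM to 1 nM 1 to 3 (1 without any of 8 libraries), and for that from 10 nM to 100 nM 0 to 1 (0 without any of 6). Depth limits little here, since each member had at least 233 reads in every library, and the duplicates set the precision.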
